A study of Mus musculus with 10 samples.

Results

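Motor neurons of the ventral spinal cord release acetylcholine onto muscle, and 9 genes of their cholinergic machinery and identity were read out in lumbar spinal cord of mice given paclitaxel or vehicle. The genes were chosen by name, not by their values: Chat, Slc18a3, Slc5a7, Ache, Slc10a4, Chodl, Ret, Gfra1 and Mmp9, which are 9 of the 24411 genes listed. Whole lumbar cord was sequenced as bulk tissue, as 5 paclitaxel and 5 vehicle libraries, numbered by replicate within each group. The sources used here give no strain, genotype, age, sex, dose or time after treatment. Nor do they say whether the 5 samples of a group came from separate animals, so each p-value reflects only how these samples vary, which may be technical. Paclitaxel stabilises microtubules and is used against cancer, and its side effects include a painful neuropathy.

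Choline acetyltransferase (Chat) makes acetylcholine in the nerve terminal, the vesicular transporter VAChT (Slc18a3) loads it into vesicles, and acetylcholinesterase (Ache) splits it in the synaptic cleft. The high-affinity choline transporter (Slc5a7) then takes the choline back up. In the cord the cholinergic cells are motor neurons, preganglionic autonomic neurons and a small set of interneurons, among them those that form the large C-bouton synapses on motor neurons. Slc10a4 is an orphan vesicle protein of cholinergic and monoaminergic terminals. Chodl (chondrolectin) and the matrix protease gene Mmp9 mark fast motor neurons, and Ret with its co-receptor Gfra1 forms the receptor for the survival factor GDNF. Ache, Ret and Gfra1 are also made by other cells of the cord.

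Chat and Slc18a3 share a single locus on chromosome 14 (GRCm38, minus strand). Chat runs from 32408203 to 32465909, and Slc18a3, a gene of 1 exon from 32462437 to 32464850, lies within the first intron of Chat. The start sites are 1059 bases apart and no Chat exon overlaps Slc18a3, so mature reads of the pair can be told apart. The 250 bases before each start (RefSeq, GRCm38.p6) are shown for this nested pair. The windows do not overlap, and shared regulation was not tested. Matches on either strand to the GC box GGGCGG, the cyclic AMP response element core TGACGT and the TATA box TATAAA are in capitals. These motifs do not overlap each other here.
Chat, chr14:32465910-32466159: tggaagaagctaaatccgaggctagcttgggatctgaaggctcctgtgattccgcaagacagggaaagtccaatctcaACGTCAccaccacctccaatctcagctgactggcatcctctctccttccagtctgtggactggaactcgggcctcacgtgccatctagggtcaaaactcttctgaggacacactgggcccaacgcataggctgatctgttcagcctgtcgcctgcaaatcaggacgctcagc
Slc18a3, chr14:32464851-32465100: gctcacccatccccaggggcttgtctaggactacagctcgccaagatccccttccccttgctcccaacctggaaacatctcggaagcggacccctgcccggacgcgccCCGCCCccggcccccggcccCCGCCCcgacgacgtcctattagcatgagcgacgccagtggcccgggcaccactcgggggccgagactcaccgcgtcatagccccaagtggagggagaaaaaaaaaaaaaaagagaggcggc
The Chat window held 1 cyclic AMP response element core, 172 bases before the start, and no GC box. The Slc18a3 window held 2 GC boxes and no response element core. Of 32851 promoters of the same length, 6.47% held the response element core, 32.7% a GC box and 12.4% a TATA box. The windows were 54.8% and 66.0% GC, against a median of 52.4%.

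The other members lie on separate chromosomes or apart on one. Slc5a7 lies on chromosome 17 from 54273590 to 54299038, Ache on chromosome 5 from 137288247 to 137294466 and Slc10a4 on the same chromosome from 73006904 to 73012955. Chodl lies on chromosome 16 from 78930841 to 78951736, Ret on chromosome 6 from 118151748 to 118197744, Gfra1 on chromosome 19 from 58235581 to 58455946 and Mmp9 on chromosome 2 from 164940326 to 164955850. Annotated antisense or intergenic RNAs on the other strand overlap an end of Chat, Ache and Gfra1. Since the strand setting of the counting is not given, reads from those overlaps cannot be told apart. Expected counts of Slc10a4 were not whole in 9 of 10 libraries, so part of its reads was shared with another listed gene by the counting model.

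Depth was 3676259 to 5432072 counts for paclitaxel and 4585899 to 7791594 counts for vehicle. A member had between 71 counts (Mmp9 in paclitaxel replicate 4) and 1695 counts (Ache in vehicle replicate 5). All 9 members passed the filter on low counts, as did 13287 genes in all. Paclitaxel replicate 3 stood apart in the members' values, as given below. Over all tested genes, too, it differed more from the other paclitaxel libraries than they did from each other. Vehicle replicate 4 stood apart in genes of meninges and fibroblasts, with a mean log2 CPM 0.69 above the vehicle mean over 6 genes, and the other libraries lay between -0.40 and 0.09. CPM is the count of a gene scaled to a common library size, with TMM factors.

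The label of the set was checked against genes that mark motor neurons. The motor neuron transcription factor genes Isl1, Isl2 and Mnx1 had means between 2.27 and 3.18 CPM over the 10 libraries. The intermediate filament gene Prph (peripherin), abundant in motor and sensory neurons, had a mean of 87.2 ± 15.6 CPM in the paclitaxel group, beside 98.4 ± 14.7 CPM in the vehicle group (SD, n = 5 each). Defining genes of sensory ganglion neurons, which also express Ret, Gfra1 and Prph, were at or near 0: Mrgprd had 0 counts in all libraries, Scn10a 1 count in all of them together, and Avil and Trpv1 at most 3 and 1 counts in a library. The neutrophil genes S100a8 and S100a9 (neutrophils store MMP9) reached at most 5 and 19 counts in a library. The 9 neutrophil genes listed summed to between 0.27 and 3.39 CPM with paclitaxel and between 0.35 and 9.38 CPM with vehicle.

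No member passed the test for a difference between paclitaxel and vehicle, and the intervals given below bound what the data allow. In edgeR's quasi-likelihood test 0 members passed an adjusted p of 0.05, where 0% of all 13287 tested genes did, and DESeq2 called 0 members. At an unadjusted p under 0.05 there were also 0 members, against 6.07% of all genes. The paclitaxel and vehicle values overlapped for every member, whereas they did not overlap for 1.09% of all genes. The fitted log2 fold change was below 0 for 5 members and above 0 for 4, and 50.9% of all genes were below 0. The median over the members was -0.06, beside -0.0027 over all genes, and it was 0.02 without paclitaxel replicate 3.

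**Figure D1:**
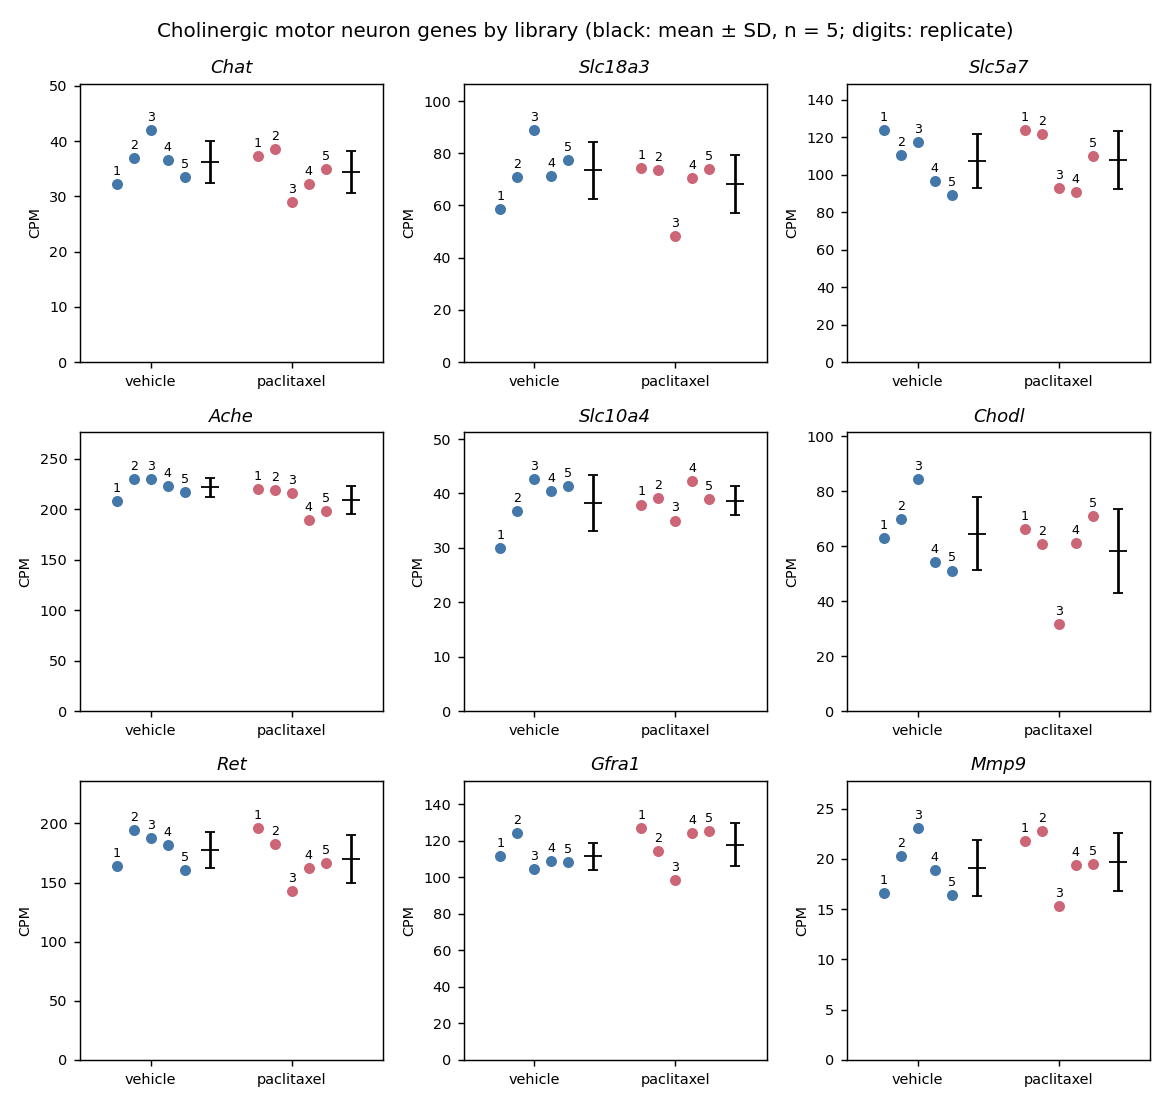
CPM of the 9 genes in each library, with vehicle in blue and paclitaxel in red, replicate numbers above the points and the mean ± SD of 5 libraries in black. The groups overlap in every panel, and paclitaxel replicate 3 is lowest for Chat, Slc18a3, Chodl, Ret, Gfra1 and Mmp9.

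Acetylcholine synthesis and vesicle loading differed little between the groups. Chat was at 37.3, 38.6, 29.1, 32.2 and 35.0 CPM in paclitaxel replicates 1 to 5 and at 32.2, 37.0, 42.02, 36.7 and 33.5 CPM in vehicle replicates 1 to 5. The lowest value belonged to paclitaxel replicate 3 and the highest to vehicle replicate 3, with the rest interleaved. The means were 34.4 ± 3.86 and 36.3 ± 3.82 CPM (SD, n = 5 each), and the log2 fold change was -0.06 (SE 0.09; edgeR adjusted p = 0.929). The 95% interval of the ratio ran from 0.836 to 1.09.

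Slc18a3, which sets how much transmitter a vesicle can take up, was at 74.5, 73.6, 48.4, 70.7 and 73.9 CPM with paclitaxel and at 58.8, 70.7, 88.9, 71.4 and 77.4 CPM with vehicle. Of the paclitaxel libraries, 4 lay within 4 CPM of each other and replicate 3 lay far below them. The means were 68.2 ± 11.2 and 73.4 ± 10.97 CPM (SD, n = 5 each), with a log2 fold change of -0.10 (SE 0.13; edgeR adjusted p = 0.903). Without paclitaxel replicate 3 it was 0.00025, and the same omission moved that of Chat to -0.0037. Per kilobase of transcript, Slc18a3 stood above Chat by 2.34 ± 0.243 times with paclitaxel and 2.40 ± 0.230 times with vehicle (SD, n = 5 each), so the ratio of these nested genes differed by less than its spread.

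Slc5a7, whose uptake of choline limits the rate of synthesis, was at 124, 121, 93.0, 90.6 and 109.9 CPM with paclitaxel and at 124, 110.4, 117, 96.4 and 89.1 CPM with vehicle. Each group held both high and low libraries. The means were 108 ± 15.5 and 107 ± 14.4 CPM (SD, n = 5 each), and the log2 fold change was 0.01 (SE 0.11; edgeR adjusted p = 0.993). Its sign turned with the library left out, from -0.05 without vehicle replicate 5 to 0.07 without vehicle replicate 1.

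The breakdown enzyme gene Ache had the lowest p of the members. It was at 220.1, 219, 216, 189 and 198 CPM with paclitaxel and at 208, 229.7, 229.9, 223 and 217 CPM with vehicle. All 5 paclitaxel libraries lay below the vehicle mean, and 3 of them lay above vehicle replicate 1. The means were 209 ± 13.9 and 222 ± 9.28 CPM (SD, n = 5 each), with a log2 fold change of -0.09 (SE 0.06; edgeR unadjusted p = 0.135, adjusted p = 0.813). The 95% interval of the ratio, 0.871 to 1.02, was the narrowest of the 9. Ache is rich in GC (58.7%, higher than 92.2% of tested genes), and once GC content and length were corrected for, a step added after the data were seen, its log2 fold change was -0.0087.

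The vesicle protein gene Slc10a4 was at 38.0, 39.2, 35.0, 42.3 and 38.9 CPM with paclitaxel and at 30.0, 36.9, 42.7, 40.4 and 41.4 CPM with vehicle. Vehicle replicate 1 was the lowest library and vehicle replicate 3 the highest. The log2 fold change was 0.01 (SE 0.09; edgeR adjusted p = 0.989), between -0.06 and 0.05 with each library left out in turn.

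Of the 9 members, the motor neuron subtype gene Chodl varied most. Chodl was at 66.3, 60.8, 31.8, 61.1 and 71.0 CPM with paclitaxel and at 62.9, 69.9, 84.5, 54.3 and 51.1 CPM with vehicle. Its highest library exceeded its lowest by 2.65 times, the widest range of the members, and both extremes were replicate 3 of their group. The means were 58.2 ± 15.3 and 64.5 ± 13.4 CPM (SD, n = 5 each), and the log2 fold change was -0.14 (SE 0.22; edgeR adjusted p = 0.943). Without paclitaxel replicate 3 it was 0.02. The 95% interval of the ratio, 0.637 to 1.29, is the widest of the 9.

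Mmp9, made by fast motor neurons and by myeloid cells, was at 21.8, 22.7, 15.3, 19.4 and 19.5 CPM with paclitaxel and at 16.6, 20.3, 23.1, 18.9 and 16.4 CPM with vehicle. Again paclitaxel replicate 3 was lowest and vehicle replicate 3 highest. The log2 fold change was 0.06 (SE 0.12; edgeR adjusted p = 0.950), and 0.15 without paclitaxel replicate 3.

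The signalling receptor gene Ret was at 196, 183, 143, 163 and 166 CPM with paclitaxel and at 164, 195, 188, 181 and 161 CPM with vehicle. Paclitaxel libraries held both the highest and the lowest value. The means were 170.1 ± 20.5 and 178 ± 14.95 CPM (SD, n = 5 each), with a log2 fold change of -0.06 (SE 0.08; edgeR adjusted p = 0.904).

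Gfra1, the subunit that binds GDNF and recruits Ret, had the largest value above 0. It was at 127, 114, 98.5, 124 and 125 CPM with paclitaxel and at 112, 124, 104, 109 and 108 CPM with vehicle. Of the paclitaxel libraries 4 lay above the vehicle mean, and replicate 3 was lowest of all 10. The means were 118 ± 11.9 and 111 ± 7.56 CPM (SD, n = 5 each), with a log2 fold change of 0.08 (SE 0.07; edgeR adjusted p = 0.852). Without paclitaxel replicate 3 it was 0.14 (unadjusted p = 0.0305, adjusted p = 0.972).

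**Figure D2:**
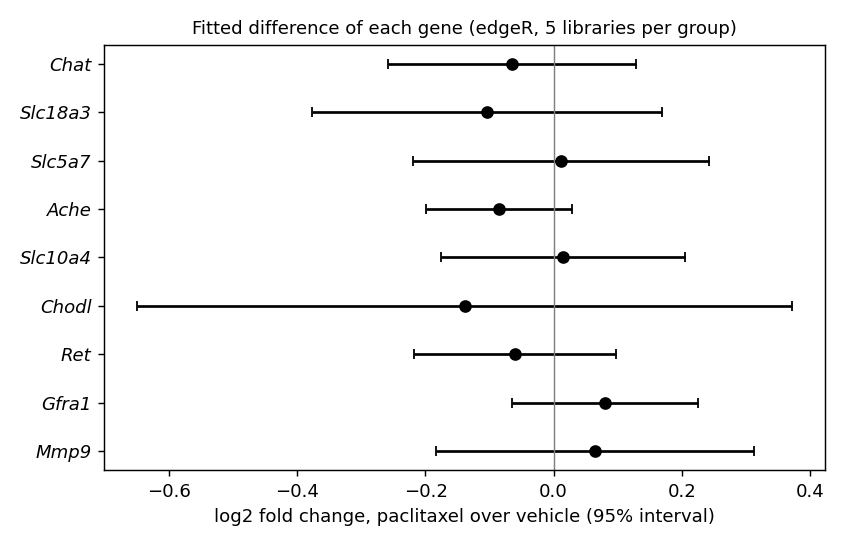
Fitted log2 fold change of each gene, paclitaxel over vehicle, with its 95% interval (edgeR quasi-likelihood, 5 libraries per group). Every interval includes 0, from the narrowest for Ache (ratio 0.871 to 1.02) to the widest for Chodl (0.637 to 1.29).

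Levels were compared between genes per kilobase of the longest transcript listed. Ache was highest at 98.4 CPM per kilobase over the 10 libraries, 3.09 times Ret (31.9), and above it in 10 of 10 libraries. Slc18a3 (29.4), Gfra1 (24.7), Chodl (24.2), Slc5a7 (20.8) and Slc10a4 (18.3) followed, and each of these neighbours changed places in at least 1 library, as did Ret and Slc18a3. Chat (12.4) stood below Slc10a4 and above Mmp9 (6.11) in 10 of 10 libraries. RNA of the synthetic enzyme gene Chat was thus less abundant, per listed transcript length, than that of the transporter genes Slc18a3 and Slc5a7. Protein was not measured.

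The spread between libraries of a group exceeded counting error for each member. It was 23.7% for Chodl, where counting alone gives 5.90%, and 15.7% for Slc18a3 (counting 5.39%). Mmp9, the member with the fewest counts, had 14.6% (counting 10.2%), Slc5a7 13.9% (4.36%), Chat 10.9% (7.58%) and Ache 5.57% (3.07%). Ret, Slc10a4 and Gfra1 lay between 8.61% and 10.6%.

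Part of this spread was shared among members. Over the 10 libraries, log2 CPM of Chat and Mmp9 had Pearson's r = 0.89 (adjusted permutation p = 0.0151) and Spearman's rho = 0.92 (adjusted permutation p = 0.0216). Chat and Ret had r = 0.88 (0.0169) and rho = 0.85 (0.0438), and Ret and Mmp9 r = 0.84 (0.0220) and rho = 0.84 (0.0438), with permutation p-values adjusted over the 36 pairs of members. Of the 36 pairs, 34 had r above 0, with a median of 0.50. The same values over pairs of other genes were not computed, so these cannot be read as particular to the members. By Pearson's r 7 pairs passed, and by Spearman's rho 3, the pairs just given.

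These 3 pairs kept high values in other readings, although their calls rested on paclitaxel replicate 3. Leaving out the 2 libraries farthest from the median of the first gene gave r = 0.79 for Chat and Mmp9, 0.85 for Chat and Ret and 0.72 for Ret and Mmp9. With the group means removed, r was 0.97, 0.87 and 0.90, and with GC content and length corrected 0.86, 0.88 and 0.78. Without paclitaxel replicate 3 they were 0.84, 0.80 and 0.75, and then 0 of 36 pairs passed.

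Other pairs moved in both directions as libraries were left out. Chat and its nested neighbour Slc18a3 had r = 0.83 (adjusted permutation p = 0.0220) and rho = 0.71 (0.137), and r was 0.46 without paclitaxel replicate 3 and vehicle replicate 3. Chat and Chodl had r = 0.77 and rho = 0.54 (adjusted permutation p = 0.0490 and 0.311), and r = 0.21 without the same libraries. Slc18a3 and Slc10a4 had r = 0.72, with 0.83 without paclitaxel replicate 3 and 0.51 without that library and vehicle replicate 1. Without the 2 farthest libraries, r went from 0.56 to 0.83 for Chodl and Gfra1 and from 0.60 to 0.71 for Slc5a7 and Chodl. Without paclitaxel replicate 3 alone it was 0.14 for Chodl and Gfra1 and 0.59 for Slc5a7 and Chodl. None of these 3 pairs passed over the 36. Chat and Slc5a7 had r = 0.56, Chat and Gfra1 r = 0.21, and Slc5a7 and Slc10a4 had the lowest, r = -0.38 (adjusted permutation p = 0.211, 0.621 and 0.440).

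**Figure D3:**
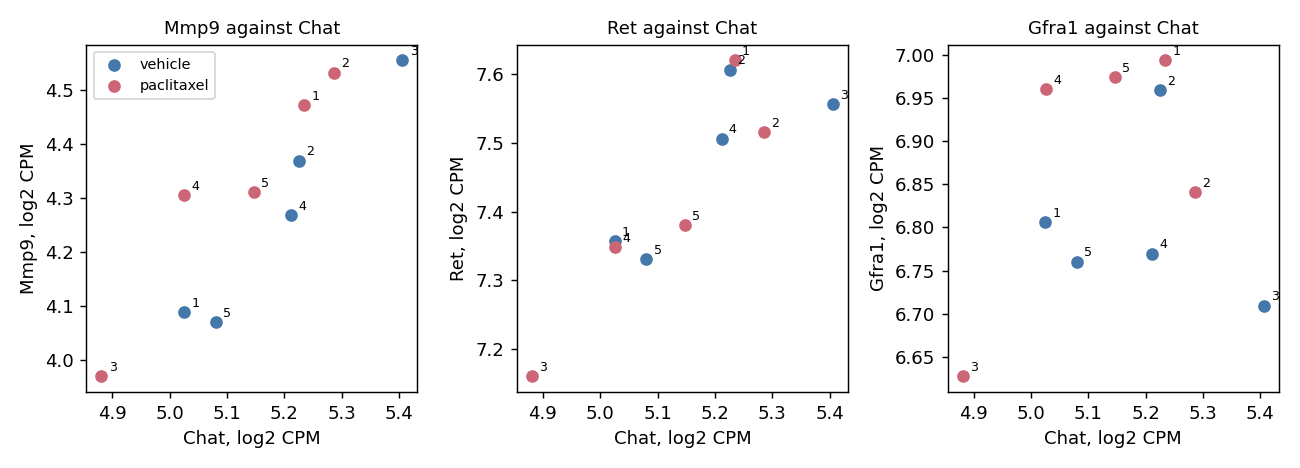
Log2 CPM of Mmp9, Ret and Gfra1 against Chat, one point per library with its replicate number, vehicle in blue and paclitaxel in red. Mmp9 and Ret rise with Chat (r = 0.89 and 0.88), whereas Gfra1 does not follow it (r = 0.21), and paclitaxel replicate 3 is at the lower left of each panel.

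Library by library, paclitaxel replicate 3 was below the vehicle mean for 9 of 9 members and lowest of all libraries for 6, while vehicle replicate 3 was highest for 6. The members' mean log2 CPM relative to the vehicle mean was -0.33 in paclitaxel replicate 3 and between -0.11 and 0.17 in the other libraries. Of other motor neuron genes, some were low in the same library and some were not. Prph was at 59.4 CPM there and at 82.4 or more in the other 9, and Nefh, the heavy neurofilament gene of large axons, at 1778 CPM against 2384 or more. Both were picked after their values were seen. Isl2 was at 4.03 CPM in paclitaxel replicate 3, the highest of the 10 libraries but for paclitaxel replicate 2 (4.07), and Isl1 at 2.33 CPM was near its mean of 2.27. Mnx1 was at 1.70 CPM in paclitaxel replicate 3, and only vehicle replicate 1 (1.45 CPM) was lower. These values rest on few counts, as 3 counts make 0.638 CPM in paclitaxel replicate 3. The motor neuron transcription factor list was at -0.09 relative to the vehicle mean there, and at -0.22 in vehicle replicate 1. The list of 17 alpha and gamma motor neuron genes holds Prph and Nefh. It lay between -0.05 and 0.06 in the other libraries and at -0.34 in paclitaxel replicate 3. Genes of neurons in general had a mean 0.0091 above the vehicle mean in that library and genes of dorsal horn neurons 0.05 above. The lists of ventral interneurons (5 tested genes) and sensory ganglion neurons (3 tested genes) were 0.24 and 0.39 above it. In the other libraries they ranged from -0.27 to 0.21 and from -0.35 to 0.32. The 10 genes of neurons in general did not move as one. Over the 10 libraries their r with the mean log2 CPM of Chat, Slc18a3 and Slc5a7 ran from -0.82 (Rbfox1) to 0.83 (Nefl). Their list mean near the vehicle mean therefore does not show that each was unchanged in paclitaxel replicate 3. In bulk tissue, fewer cells of a type and less RNA per cell cannot be told apart, and neither was measured here.

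**Figure D4:**
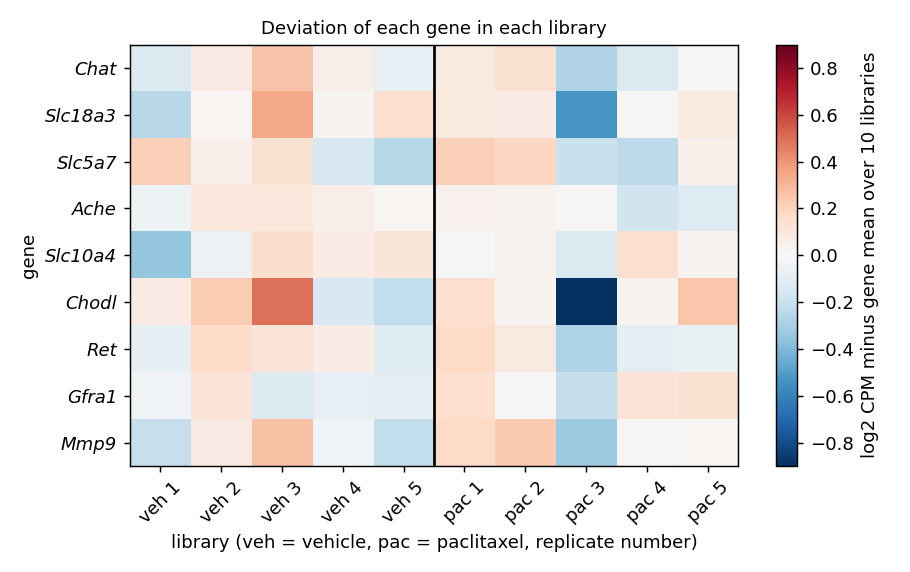
Log2 CPM of each gene in each library minus the gene's mean over the 10 libraries, with higher values in red and lower values in blue, vehicle on the left and paclitaxel on the right. Paclitaxel replicate 3 is blue in most rows, deepest for Chodl and Slc18a3, and vehicle replicate 3 is red in most rows.

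Library properties moved with these values too. The slope of log2 CPM on GC content was lowest in paclitaxel replicate 3 (-0.14 for each 10 points of GC content) and highest in vehicle replicate 3 (0.11). Over the 10 libraries this slope had r = 0.66 with the mean log2 CPM of Chat, Slc18a3 and Slc5a7. With GC content and length corrected, paclitaxel replicate 3 was still lowest for Chodl (30.5 CPM, with 52.2 or more in the other libraries) and for Slc18a3 (53.8 CPM, with 63.9 or more). The same held for Chat (31.5 CPM, with 32.5 or more) and Ret (146 CPM, with 162 or more). Gfra1 was also still lowest there (99.9 CPM, with 106 or more), and Slc5a7 became so (84.8 CPM, with 90.7 or more). Paclitaxel replicate 3 was then the highest of the 10 for Ache (237 CPM), and for Mmp9 (16.9 CPM) it lay above vehicle replicate 5 (16.1 CPM). Red blood cell genes were also lowest in paclitaxel replicate 3, at a mean log2 CPM of -1.30 relative to the vehicle mean. They were at -1.09 in vehicle replicate 1 and at 1.02 in paclitaxel replicate 1. The part of these differences in the result was not tested.

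By a fixed rule, the genes most like the mean of Chat, Slc18a3 and Slc5a7, those 3 aside, over the 10 libraries included Hic1, Mmp11, Llgl1, Kcnk12, Irf8, Fzr1 and Nkx2-9, with r from 0.92 to 0.97. They were chosen for r, so no p is given, and the libraries are the same throughout. Kcnk12 encodes a two-pore-family potassium channel (r = 0.93). The median GC content of the 8 genes that the rule took was 59.1%, above the 49.8% of all tested genes. With GC content and length corrected Hic1 (0.97), Mmp11 (0.95) and Irf8 (0.92) stayed near the top, and Llgl1 was at r = 0.76. Hic1 and Mmp11 had very few counts in paclitaxel replicate 3, at 0.85 and 0.42 CPM, where 3 counts make 0.638 CPM. Among members outside that mean, Mmp9 ranked 34, Chodl 44 and Ret 70 of 13287 genes, while Ache ranked 3051, Slc10a4 3462 and Gfra1 3484. Nefh ranked 20 and Prph 71. These ranks leaned on paclitaxel replicate 3: without it Mmp9 ranked 32, Chodl 227, Ret 171, Ache 527, Slc10a4 4070, Gfra1 8742 (r from 0.35 to -0.15), Nefh 57 and Prph 382.

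The other genes around acetylcholine showed no change that passed over all genes. Of 11 tested genes of choline supply and acetylcholine breakdown, 4 were above 0 and 7 below, with a median of -0.0074. Lowest in p were Lypd1 and Lynx1, which encode membrane-anchored proteins that dampen nicotinic receptors, at log2 fold changes of -0.25 (SE 0.09) and -0.15 (SE 0.06), and the choline transporter-like gene Slc44a2 at 0.16 (SE 0.08; edgeR adjusted p = 0.792, 0.792 and 0.800). The Lynx1 means were 486 ± 49.4 CPM for paclitaxel libraries, 538 ± 20.6 CPM for vehicle libraries (SD, n = 5 each). Of 9 tested acetylcholine receptor genes, 6 were above 0 and 3 below (median 0.02). Chrna7, the α7 nicotinic subunit, was at 0.28 (SE 0.14; adjusted p = 0.800), Chrm5 at 0.18 and Chrm3 at -0.10, while Chrm2, the muscarinic receptor of C-bouton synapses, was at 0.02.

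Motor neuron transcription factor genes split 7 above and 4 below 0 of 11 tested (median 0.10). Zeb2, which glia also express, was at 0.20 (SE 0.07), Nkx6-1, a ventral patterning factor, at -0.39 (SE 0.22) and Lhx4 at -0.36 (SE 0.26; edgeR adjusted p = 0.792, 0.804 and 0.831). Of 17 genes of alpha and gamma motor neurons, 6 were above 0 and 11 below (median -0.03), led by Calcb at -0.39, the synaptic vesicle gene Sv2a at -0.09 and Calca at -0.42 (adjusted p = 0.792, 0.800 and 0.800). Sv2a, with means of 572 ± 7.41 CPM for paclitaxel libraries, 609 ± 8.54 CPM for vehicle libraries (SD, n = 5 each), was the only one of the 17 whose groups did not overlap. Over all tested genes, 1.09% had groups that did not overlap. Genes of the C-bouton synapse and cholinergic interneurons were 1 above and 6 below 0 of 7 tested (median -0.10), with the nitric oxide synthase gene Nos1 at -0.10 and the potassium channel gene Kcnn3 at -0.10.

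Partners of Ret and Gfra1 did not pass either. GDNF itself was near the limit of detection, with 15 counts for Gdnf over all libraries. Of 6 tested genes of the ligands and co-receptors, 2 were above 0 and 4 below (median -0.04). Gfra2, the co-receptor for neurturin, was at -0.12 (SE 0.09), Sdc3 at -0.07 and the ligand gene Nrtn at 0.14 (edgeR adjusted p = 0.834, 0.848 and 0.947). Of 11 tested relatives and inhibitors of Mmp9, 6 were above 0 and 5 below (median 0.02), with the membrane-type protease gene Mmp16 at 0.29 (SE 0.14), the inhibitor gene Timp2 at 0.08 (SE 0.05) and Mmp15 at -0.16 (SE 0.09; adjusted p = 0.800, 0.806 and 0.808).

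Lists of other cells gave medians of 0.02 for neurons in general (5 above and 5 below 0 of 10), 0.0061 for dorsal horn neurons (8 and 6 of 14) and 0.07 for ventral interneurons (4 and 1 of 5). Tubb3 (-0.14), Map2 (0.09) and Syt1 (0.12) had the lowest p of the first, the glutamatergic neuron factor gene Tlx3 (-0.42), Pdyn (0.19) and Penk (-0.08) of the second and En1 (-0.41) and Foxp2 (0.13) of the third. The medians were 0.12 over 3 tested sensory ganglion genes (Pou4f1 0.20, P2rx3 0.12, Th 0.02), 0.04 over 3 Schwann cell genes (Drp2 0.04, Ncmap 0.14, Foxd3 -0.10), -0.06 over 6 of meninges and fibroblasts (Igf2 -0.76, Col1a1 -0.09, Ptgds 0.12) and -0.04 over 6 of red blood cells (Hba-a2 -0.43, Alas2 -0.11, Hba-a1 -0.04). No skeletal muscle or neutrophil gene had enough counts to be tested. No gene of these lists passed over all genes.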

How the data were processed

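RNA of 10 lumbar cord samples was made into mRNA libraries and sequenced on an Illumina instrument, per the labels' protocols. The authors deposited expected counts per gene with no scaling for depth. The submitters' processing notes name RSEM, STAR, build mm10 and edgeR 4.2.0. The sources used here do not give the annotation release, strand setting or read filters. Of the deposited expected counts, 5.04% were not whole, and all were rounded.

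Counts were filtered with filterByExpr (minimum count 10, minimum total 15), scaled by TMM and fitted in edgeR 4.0.16 (R 4.3.3) with the robust quasi-likelihood test. There were no covariates, and p-values were Benjamini-Hochberg adjusted over all tested genes (two-sided, threshold 0.05). Log2 CPM used a prior count of 2. Each SE was derived from the log2 fold change and the test statistic. Libraries within groups differed by more than sampling noise (chi-square over its degrees of freedom, 1.61 to 6.89). Pairs that held paclitaxel replicate 3 were at 5.00 to 6.89, and all other pairs at 1.61 to 4.60. The script was tested on simulated data. Correlation p-values used 100000 permutations. Lengths and GC content came from GENCODE M21 transcripts (99.5% of tested genes), and coordinates and promoters from RefSeq on GRCm38, the assembly mm10 names.

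Alternatives were DESeq2 1.42.0, limma-voom (limma 3.58.1) with sample quality weights, other scalings (DESeq2 size factors, upper quartile, library totals), no filter or a filter of 1 CPM in 5 libraries, the replicate number as a block and leaving out each library. A fit without 2 libraries (paclitaxel replicate 3, vehicle replicate 4), and a spline correction for GC content and length in each library, were added after the data were seen. The members, the gene lists and the rule for named genes (all members, the 3 tested genes of lowest p in each list, and the 8 most alike genes) were chosen with earlier results of these data known. Isl1, Isl2, Mnx1, Prph, Nefh and Chrm2 were named after their values were seen, as were Gdnf and the untested marker genes. Some genes that the rule would name are not reported here.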

Additional observations from a re-analysis of the deposited data

Results flagged for a closer look

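In 18 groups of 5 values (9 genes in 2 groups), 2 values lay far from the rest by Dixon's criterion, which chance meets in about 1 in 20 groups. Both belonged to paclitaxel replicate 3. Slc18a3 was at 48.4 CPM there, and the nearest paclitaxel library was at 70.7 CPM. Chodl was at 31.8 CPM, and the nearest was at 60.8 CPM. Without this library their log2 fold changes were 0.00025 and 0.02.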

How the results depend on the processing

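No member passed over all genes under any of 20 alternatives (smallest adjusted p = 0.543), and of 180 member values 170 kept their sign. With each library left out in turn, log2 fold changes ran from -0.17 to 0.00025 for Slc18a3, from -0.053 to 0.074 for Slc5a7, from -0.057 to 0.055 for Slc10a4 and from -0.23 to 0.022 for Chodl. Ret was at 0.0059 without paclitaxel replicate 3 and vehicle replicate 4 together, and Slc5a7 at -0.052 after the GC and length correction; the cause was not tested. At an unadjusted p under 0.05 there was 1 member in limma-voom with quality weights (Ache, -0.12), where 1011 of all genes were at that p, and between 0 and 1 with a library left out (Gfra1 without paclitaxel replicate 3, with 648 of all genes). Over all genes 806 were at that p, from 515 without vehicle replicate 3 to 1299 without vehicle replicate 1, and 508 without both libraries named above. DESeq2 called 1 gene of all tested and the fit with the replicate block 1 gene, neither a member. Same-numbered libraries correlated between -0.10 and 0.14 in their deviations and not each best with its own number, so the numbers were not taken as pairs. Pairs of members that passed by Pearson's r (7) numbered between 0 (without paclitaxel replicate 3) and 11 (without vehicle replicate 1) with a library left out, with 2 without paclitaxel replicate 1, 4 without paclitaxel replicate 4 or vehicle replicate 2 and 3 without vehicle replicate 3. With that pair of libraries left out there were 0, and after the GC and length correction 9. The spread between libraries exceeded counting error for each member, and more depth was not tested.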
